A study of Mus musculus with 12 samples.

Results

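The 9 genes described here carry out electroneutral salt absorption and chloride secretion in the intestinal epithelium. They were taken by their symbols, Slc26a3, Slc26a2, Slc26a6, Slc9a2, Slc9a3, Slc12a2, Cftr, Atp1b1 and Slc5a1, and all 9 were among the 17734 genes of the deposited expression table. The RNA came from the rectum of 12 male C57BL/6 mice aged 8 to 10 weeks, with 3 mice in each of 4 groups, and was sequenced to see what colitis and its treatment with berberine (BBR), a plant alkaloid, do to gene expression. Normal mice drank water. Colitis mice drank 2.5% dextran sulfate sodium (DSS), a polymer that injures the bowel lining, over 7 d. Normal mice receiving berberine (BBR-treated normal mice below) and colitis mice receiving berberine (BBR-treated colitis mice) had in addition 100 mg/kg of BBR by gavage every day, for 6 d according to the labels and 7 d according to the methods. The labels give no genotype beyond the strain, and DSS colitis is a model of chemical injury. Normal mice with and without BBR carry the labels 1, 3 and 4, colitis mice 1, 2 and 4, and BBR-treated colitis mice 2, 3 and 4. Nothing in the labels says that mice with 1 number belong together.

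Salt is absorbed in the colon without net charge movement when an apical sodium-hydrogen exchanger works beside an apical chloride-bicarbonate exchanger, so that sodium and chloride enter the cell and water follows. Chloride is secreted when a basolateral cotransporter loads the cell with chloride and an apical channel lets it out. Both directions are driven by the sodium pump in the basolateral membrane, and a shift of the balance from absorption to secretion is a textbook basis of diarrhoea in colitis. Of the 9 genes, Slc26a3 (DRA) and Slc26a6 (PAT1) encode apical anion exchangers, and Slc26a2 encodes a sulfate transporter of the same family. Slc9a2 (NHE2) and Slc9a3 (NHE3) encode apical sodium-hydrogen exchangers. Slc12a2 (NKCC1) is the basolateral sodium-potassium-chloride cotransporter and Cftr the cyclic AMP-gated chloride channel of secretion. Atp1b1 encodes a beta subunit of the sodium pump, and Slc5a1 (SGLT1) a sodium-glucose cotransporter.

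Promoters of 3 of the genes are shown because Slc26a3 and Slc5a1 varied alike from mouse to mouse while Slc9a3 did not follow them. Each is the 250 bases before the RefSeq start on GRCm38.p6, read 5′ to 3′ on the plus strand, the strand of all 3 genes. The windows are chr12:31437969-31438218 for Slc26a3, chr13:74121163-74121412 for Slc9a3 and chr5:33103969-33104218 for Slc5a1. Capitals mark matches, on either strand, to 4 motifs of 6 letters that were chosen after the sequences had been seen. The first, TATAAA, is the core element near many start sites. The second, GGGCGG, is the GC-rich box that factors of the Sp family bind. The third, CACGTG, is the palindromic E-box, and the last, GTTAAT, is part of the site of the intestinal factor HNF1.
Slc26a3: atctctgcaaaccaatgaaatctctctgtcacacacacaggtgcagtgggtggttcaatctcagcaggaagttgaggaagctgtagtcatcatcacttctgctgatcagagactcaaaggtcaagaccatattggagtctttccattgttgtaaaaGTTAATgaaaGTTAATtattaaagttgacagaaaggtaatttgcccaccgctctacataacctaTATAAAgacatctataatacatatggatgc
Slc9a3: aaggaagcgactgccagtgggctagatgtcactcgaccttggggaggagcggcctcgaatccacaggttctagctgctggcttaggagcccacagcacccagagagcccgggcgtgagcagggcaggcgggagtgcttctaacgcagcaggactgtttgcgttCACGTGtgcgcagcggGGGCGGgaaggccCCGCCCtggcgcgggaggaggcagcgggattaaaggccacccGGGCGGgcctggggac
Slc5a1: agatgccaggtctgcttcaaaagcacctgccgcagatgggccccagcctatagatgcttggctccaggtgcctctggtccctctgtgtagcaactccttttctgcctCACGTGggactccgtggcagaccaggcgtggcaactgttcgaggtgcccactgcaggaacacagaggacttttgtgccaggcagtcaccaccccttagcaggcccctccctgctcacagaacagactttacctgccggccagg
The Slc26a3 window had a GC content of 38.8%, 1 TATAAA beginning 30 bases before the start and 2 GTTAAT at 94 and 84 bases before it. The Slc9a3 window had a GC content of 67.6%, 3 GGGCGG matches and 1 CACGTG, and no TATAAA. The Slc5a1 window, with a GC content of 60.0%, held 1 CACGTG. Among 32851 promoter windows of this length, TATAAA was found in 12.4%, GTTAAT in 6.43%, GGGCGG in 32.7% and CACGTG in 6.02%. No motif overlapped another. The matches are descriptions of sequence and were not tested against expression. Promoter entries were found for 6 of the 9 genes, those of Slc26a2, Slc9a2 and Slc12a2 being missing.

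Each gene has 1 value in each mouse, taken to be FPKM (fragments scaled to transcript length and library size), which permits levels of different genes to be set side by side. Averaged over the 12 mice, Slc26a3 had the highest level of the 9 genes (923 FPKM), with Atp1b1 next (897 FPKM), and both lay at the 99.3 percentile of all genes in the table. Slc26a2 followed at 217 FPKM, Slc9a2 at 94.4 FPKM, Slc5a1 at 53.6 FPKM, Slc9a3 at 47.6 FPKM, Slc12a2 at 21.3 FPKM and Cftr at 12.7 FPKM. Slc26a6 was far below the others at 0.573 FPKM, and its highest value in any mouse was 0.88 FPKM. In this order the ranges over the 12 mice of each pair of neighbours overlapped, except those of Cftr and Slc26a6. From the steps between low values, the Slc26a6 levels stood on roughly 10 to 39 reads per mouse, while each other gene had 211 or more. Every member passed the filter for testing, a mean of at least 0.1 FPKM.

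The values of a mouse summed to 482194 to 504337 in the 4 animals numbered 4, against 696286 to 765876 in the other 8, so those 4 stood apart in every group. Epithelial marker genes, the cells in which the 9 genes work, had summed levels of 8529 to 12033 FPKM in normal mice, 6841 to 11199 in BBR-treated normal mice, 8017 to 11169 in colitis mice and 5811 to 9157 in BBR-treated colitis mice, and Epcam was at 780 FPKM or more in every mouse. By group means, Krt8 and Krt19 made up most of these sums, at 2855 to 4091 FPKM each. Of the 7 absorptive colonocyte markers, 4 had higher and 3 lower estimates in colitis mice (median 0.07, none at P of at most 0.05), with sums of 8130 to 19349 FPKM in normal and 6992 to 31015 in colitis mice. Smooth muscle markers did not keep level: all 8 of 8 were lower in colitis mice, their sum being 1648 to 3095 FPKM in normal mice, 2318 to 4935 in BBR-treated normal mice and 71.5 to 663 in colitis mice. In BBR-treated colitis mice 2, 3 and 4 it was 499, 478 and 3485 FPKM, so only mouse 4 was above the colitis mice. At P of at most 0.05, which 21.4% of all genes met for colitis against normal, 3 of 7 leukocyte markers were higher in colitis mice (Cd68, Lyz2 and Itgam). Of the 7, 5 had higher and 2 lower estimates there, from −1.42 to 1.39. For BBR in colitis, where 6.39% of all genes met that limit, 3 were lower at it (Lyz2, Itgam and Csf1r). There 6 of the 7 estimates were lower and 1 higher. The leukocyte sum was 98.9 to 142 FPKM in normal mice and 112 to 183 in BBR-treated normal mice. It was 150 to 600 FPKM in colitis mice and 91.9 to 157 in BBR-treated colitis mice. All 6 granulocyte markers were higher in colitis mice at that limit, with sums of 261 to 707 FPKM in normal, 419 to 793 in BBR-treated normal, 601 to 4169 in colitis and 491 to 2945 in BBR-treated colitis mice. Ly6g alone made up most of these sums, at 259 to 707, 417 to 793, 557 to 3710 and 488 to 2749 FPKM. Of the others, S100a8 was listed at 0 in all normal mice with and without BBR, and at 24.9 to 336 FPKM in colitis mice and 0.31 to 148 in BBR-treated colitis mice. Of 8 squamous epithelium markers, the defining Krt5 was at 0.12 FPKM or less in every mouse, but 4 of the 5 tested had higher estimates in colitis mice (2 at P of at most 0.05), and the sum over the list was 8.65 to 65.7 FPKM in normal mice, 5.52 to 169 in BBR-treated normal mice, 41.3 to 444 in colitis mice and 19.8 to 354 in BBR-treated colitis mice. Nearly all of it was Sprr1a, at 7.30 to 63.0, 4.44 to 167, 39.2 to 436 and 17.9 to 349 FPKM. The highest sums were in colitis mouse 2 and in mouse 3 of BBR-treated colitis mice, and the part of these markers in the results was not tested. In whole tissue, fewer cells of a type and less RNA per cell cannot be told apart, and the part of cell makeup in the results that follow was not tested.

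Colitis against normal mice showed lower estimates for all 9 genes, with the largest differences for Cftr, Slc26a2, Slc26a3 and Slc9a3. With limma, no member passed an adjusted p of 0.05 (165 genes of the 15315 tested did, 1.08%), and 3 of the 9, Cftr, Slc9a3 and Slc26a2, had P at or under 0.05 before adjustment (the limit of the study's methods, called the unadjusted limit below), which 21.4% of all genes met, 15.9% with a lower estimate. Lower estimates were the rule among all genes too, at 73.7%, and the median log2 fold change was −0.77 over the 9 genes and −0.32 over all genes tested. For 5 of the 9, the 3 colitis mice all lay below the 3 normal mice, as they did for 22.2% of all genes. With groups this small, the smallest exact permutation p (2-sided) is 0.1, and these 5 genes reached it.

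Among the anion exchangers, Slc26a3, the main chloride-bicarbonate exchanger of colonic surface cells, was at 803, 1306 and 890 FPKM in normal mice 1, 3 and 4 and at 547, 370 and 361 FPKM in colitis mice 1, 2 and 4. The groups did not overlap. The means were 1000.1 ± 269 and 426 ± 105 FPKM (SD, n = 3 each). The log2 fold change was −1.22 (SE 0.61), with limma's unadjusted P = 0.0688 and adjusted p = 0.260. Slc26a2, which takes up the sulfate used for mucin sulfation, was at 227, 338 and 207 FPKM in normal mice and at 113, 88.9 and 89.5 FPKM in colitis mice. Every colitis mouse was thus under the lowest normal mouse by a wide margin. Its log2 fold change was −1.38 (SE 0.55, limma unadjusted P = 0.0271, adjusted p = 0.185). Slc26a6, at 0.50, 0.71 and 0.88 FPKM in normal mice and 0.45, 0.30 and 0.84 in colitis mice, overlapped between the groups, with a log2 fold change of −0.40 (SE 0.40) that turned to 0.01 after quantile normalization.

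The sodium-hydrogen exchangers differed in how evenly the mice behaved. Slc9a2 was at 112, 129 and 102 FPKM in normal mice and 90.3, 76.5 and 65.8 FPKM in colitis mice, without overlap but with a small difference (log2 fold change −0.57, SE 0.32, limma unadjusted P = 0.10, adjusted p = 0.304). Slc9a3, the exchanger that carries much of the regulated sodium uptake of the bowel, was at 84.8, 128 and 37.5 FPKM in normal mice and at 29.6, 56.5 and 22.1 FPKM in colitis mice. Here the normal mouse numbered 4 lay among the colitis mice, and the spread within normal mice was wide (83.4 ± 45.2 FPKM against 36.1 ± 18.1 FPKM, SD, n = 3 each). The log2 fold change was −1.15 (SE 0.42, limma unadjusted P = 0.0179, adjusted p = 0.157), and the exact permutation p was 0.2.

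Of the secretion genes, Cftr was at 26.4, 18.5 and 13.4 FPKM in normal mice and 8.37, 2.48 and 10.7 FPKM in colitis mice. Its difference was the largest of the 9 genes over all mice, with no overlap, means of 19.4 ± 6.54 and 7.18 ± 4.23 FPKM (SD, n = 3 each) and a log2 fold change of −1.61 (SE 0.56, limma unadjusted P = 0.0147, adjusted p = 0.146). Without colitis mouse 2, the lowest, the value was −0.98 (SE 0.49), smaller than that of Slc26a2 (−1.32, SE 0.64). Slc12a2, the step that loads chloride into the cell, did not share the lack of overlap: it was at 24.1, 22.3 and 29.6 FPKM in normal mice and 8.91, 13.9 and 36.9 FPKM in colitis mice. The colitis mouse numbered 4 had the highest Slc12a2 of all 12 mice, and colitis mouse 1 the lowest. The log2 fold change was −0.60 (SE 0.45, limma unadjusted P = 0.209, adjusted p = 0.425), with a 95% interval from −1.57 to 0.38. On leaving out each mouse it ran from −1.17, without colitis mouse 4, to −0.15, without colitis mouse 1.

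The sodium pump subunit Atp1b1 was at 863, 1068 and 976 FPKM in normal mice and 783, 504 and 960 FPKM in colitis mice. The groups overlapped, and the log2 fold change was −0.42 (SE 0.40, limma unadjusted P = 0.325, adjusted p = 0.535). The annotation of GRCm38 has Nme7 on the other strand at this gene, with 575 exon bases in common, and since the strand setting of the counting is not stated, reads of this stretch could belong to either. Slc5a1 was at 56.6, 86.5 and 57.1 FPKM in normal mice and 38.2, 32.3 and 45.1 FPKM in colitis mice, with no overlap (log2 fold change −0.77, SE 0.39, limma unadjusted P = 0.0685, adjusted p = 0.260). The direction of calls over all genes depended on the scaling, with 26.0% of those at P of at most 0.05 higher as deposited and 49.5% after quantile normalization, which moved the median of all genes to −0.05. The 9 genes had a median of −0.67 after that step, still below the median of all genes. The count of 3 at the unadjusted limit also depended on single mice. It was 1 without normal mouse 1 (Slc26a2, 14.0% of all genes), normal mouse 3 (Cftr, 17.1%) or colitis mouse 2 (Slc9a3, 14.8%). It was 2 without colitis mouse 1 (14.9%) or 4 (31.4%), where Slc12a2 joined Cftr on leaving out mouse 4. Median centring gave 1 (Cftr, 17.5% of all genes), centring on the epithelium markers 2 (14.3%), a fit of these groups alone 6 (22.5%) and the replicate block 6 (26.2%).

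**Figure D1:**
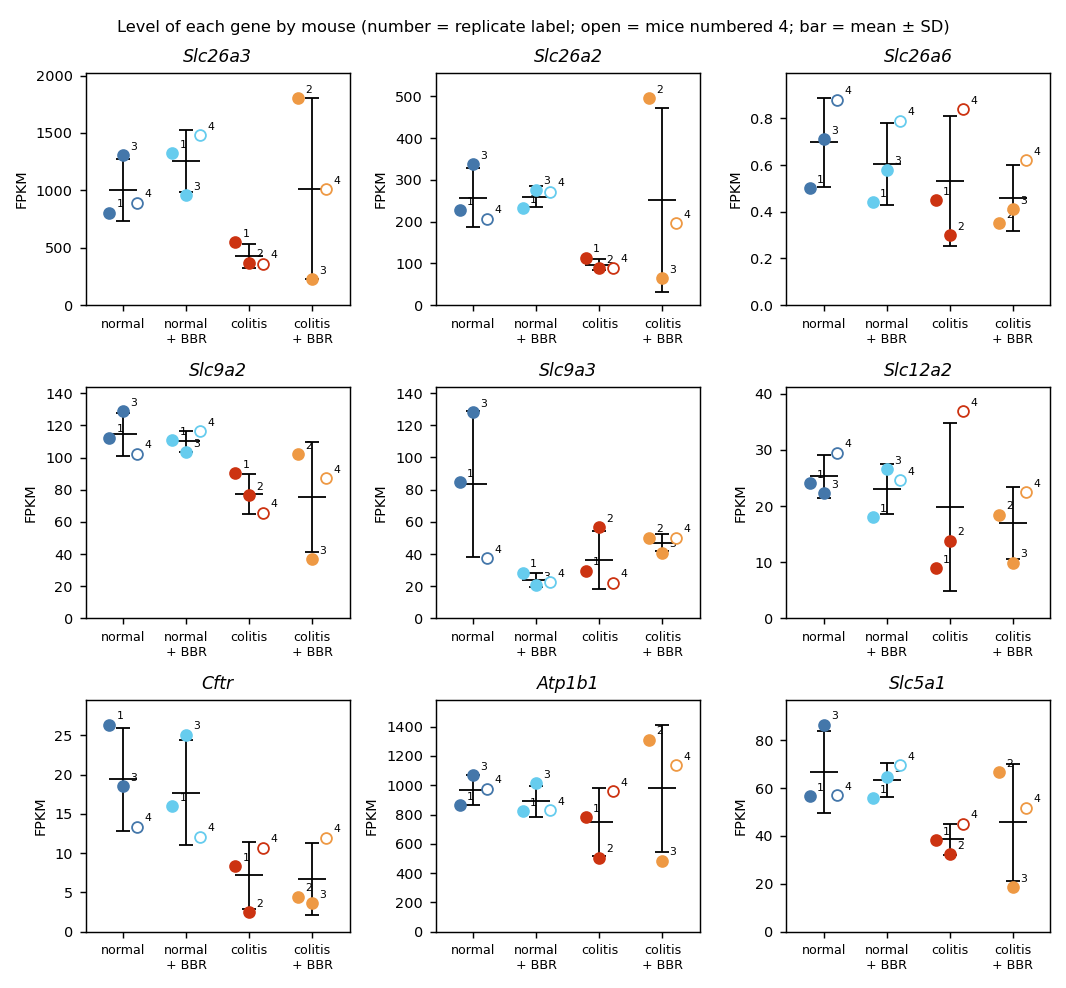
FPKM of each of the 9 genes (vertical axes, linear from 0) in every mouse of the 4 groups, with the replicate label beside each point, open points for the mice numbered 4, and bars for the mean and SD of 3 mice. Slc26a3 and Slc26a2 are low in all 3 colitis mice and spread widely in BBR-treated colitis mice (224.93 to 1803.44 FPKM for Slc26a3), while Slc9a3 is low in all 3 BBR-treated normal mice.

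BBR in colitis mice gave no difference beyond the spread for any of the 9 genes. None passed limma's adjusted limit, and none met the unadjusted limit, which 978 genes (6.39%) met although no gene passed the adjusted limit. The groups overlapped for all 9, where 7.08% of all genes had groups apart. The estimates were higher for 5 genes, as for 38.0% of all genes, and lower for 4, and the median on the log2 scale was 0.07, against −0.09 over all genes. The colitis mice of this comparison are the same 3 mice as in the comparison with normal mice, so the estimates of both share them.

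The BBR-treated colitis mice stood far apart from each other for several genes. Slc26a3 was at 1803, 225 and 1009 FPKM in BBR-treated colitis mice numbered 2, 3 and 4, with the highest and the lowest level of all 12 mice in the same group. The mean was 1012 ± 789 FPKM (SD, n = 3), and the log2 fold change against colitis mice 0.83 (SE 0.61, limma unadjusted P = 0.201), with a 95% interval from −0.51 to 2.16. Slc26a2 had the same form at 496, 63.9 and 196 FPKM (log2 fold change 0.93, SE 0.55, limma unadjusted P = 0.115, adjusted p = 0.918). The highest mouse was 8.02 times the lowest for Slc26a3 and 7.76 times for Slc26a2 in this group, against 1.19 to 1.63 times in the other groups. Mouse 2 was also the highest of the 12 for Atp1b1 (1311, 485 and 1138 FPKM). Mouse 3 was the lowest of the 12 for 5 genes, Slc26a3, Slc26a2, Slc9a2 (102, 36.9 and 87.1 FPKM), Atp1b1 and Slc5a1 (66.5, 18.6 and 51.8 FPKM), and its median ratio to the normal mean over the 9 genes was 0.322.

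The summed level of the general epithelial markers was not lowest in mouse 3, at 8629 FPKM against 5811 in mouse 2 and 9157 in mouse 4. By group means, Krt8 and Krt19 made up most of this sum (2888 and 2855 FPKM), so it says little about the other epithelial markers. The 7 markers of absorptive colonocytes had no common order. Mouse 3 was lowest for Car1 (6947 FPKM in mouse 2, 1862 in mouse 3 and 2471 in mouse 4) and Aqp8 (2935, 522 and 665), and highest for Krt20 (625, 1363 and 648), Guca2a (632, 1055 and 820) and Ceacam20 (218, 282 and 92.9). It lay between the others for Car4 and Saa1. The sum of the 7 markers was 48721, 29308 and 9410.3 FPKM, of which Saa1, an acute-phase gene, made up 25674, 17585 and 2639 FPKM. Without mouse 3, the comparison of colitis mice with and without BBR gave a log2 fold change of 1.69 for Slc26a3 (SE 0.41, limma unadjusted P = 0.00188, adjusted p = 0.116), 1.69 for Slc26a2 (SE 0.37, limma unadjusted P = 8.29e-04, adjusted p = 0.0844) and 0.62 for Slc5a1 (SE 0.25, limma unadjusted P = 0.0294, adjusted p = 0.368). The median of the 9 genes was then 0.59. So 3 of 9 met the unadjusted limit without this mouse, where 10.8% of all genes did, and none with it, and nothing in the labels sets it apart. Without mouse 2, the highest, the log2 fold change was 0.19 for Slc26a3 (SE 0.56) and 0.21 for Slc26a2 (SE 0.41), and no member met the limit (3.24% of all genes).

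Slc12a2 and Cftr, the secretion genes, had estimates near 0 under BBR in colitis. Cftr was at 4.43, 3.63 and 11.99 FPKM in BBR-treated colitis mice (6.68 ± 4.61, SD, n = 3), close to the colitis mice (log2 fold change −0.07, SE 0.56, 95% interval −1.30 to 1.16). Slc12a2 was at 18.5, 9.93 and 22.5 FPKM (−0.05, SE 0.45, 95% interval −1.03 to 0.93). These intervals leave room for sizeable differences in either direction, and the signs of both estimates turned under other scalings. Slc9a2 had −0.16 (SE 0.32), Slc26a6 −0.11 (SE 0.40), Slc5a1 0.07 (SE 0.39) and Atp1b1 0.31 (SE 0.40). Slc9a3, at 50.1, 40.8 and 50.1 FPKM, was 0.49 higher on the log2 scale (SE 0.42, limma unadjusted P = 0.265, adjusted p = 1).

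**Figure D2:**
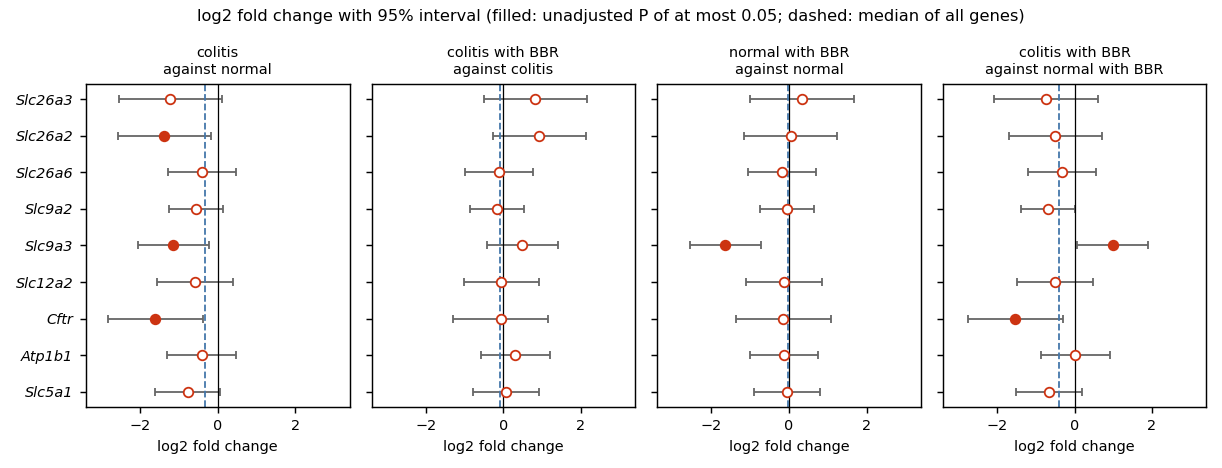
log2 fold change of each gene with its 95% interval from limma (horizontal axes) in 4 comparisons, filled where the unadjusted P is at most 0.05, with the median of all 15315 genes as a dashed line. All 9 estimates lie below 0 for colitis against normal, those for BBR in colitis all have intervals that include 0, and Slc9a3 stands alone at −1.65 for BBR in normal mice.

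Over the 12 mice, some of the 9 genes varied with Slc26a3 and others did not. Pearson's r of log2 levels with Slc26a3 was 0.96 for Slc26a2, 0.89 for Slc5a1, 0.86 for Slc9a2 and 0.75 for Atp1b1. It was 0.49 for Cftr, 0.39 for Slc12a2, 0.21 for Slc26a6 and 0.11 for Slc9a3. For deviations from the group means, pooled over the groups, r of the first 4 genes named was 0.95, 0.91, 0.97 and 0.78. BBR-treated colitis mice had by far the widest spread of Slc26a3, at 8.02-fold against 1.51- to 1.63-fold in the other groups. The pooled r therefore does not show that the likeness held in each group. In BBR-treated normal mice, mouse 3 was lowest for Slc26a3 and highest for Slc26a2. The ratio of Slc26a3 to Slc26a2 stayed between 3.45 and 5.72 in all 12 mice while Slc26a3 itself ranged over 8.02-fold. Slc26a6 was most like Slc12a2 (r = 0.73). These are descriptions over 12 mice that share the group differences, the depth of each library and, for the highest and lowest values, 2 mice of 1 group.

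**Figure D3:**
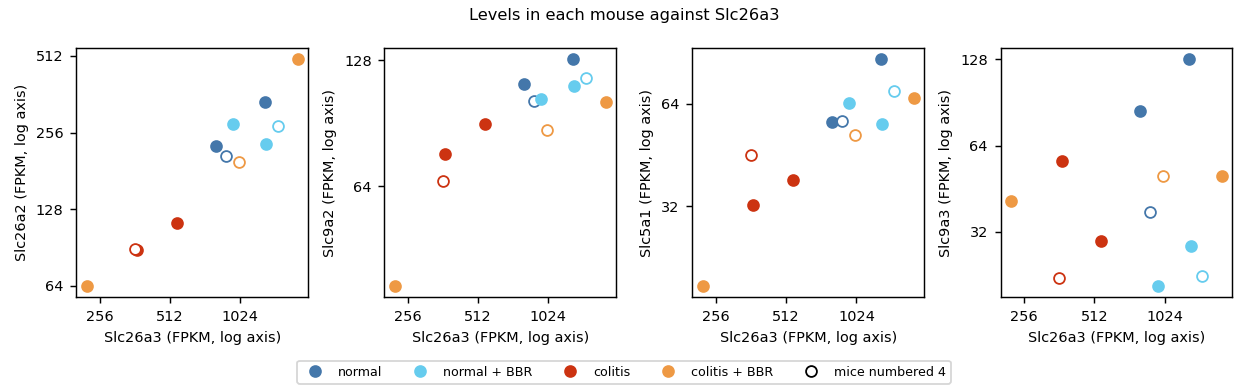
FPKM of Slc26a2, Slc9a2, Slc5a1 and Slc9a3 (vertical, log axes) against Slc26a3 (horizontal, log axis), 1 point per mouse, coloured by group and open for the mice numbered 4. The first 3 tend to rise with Slc26a3 (r of 0.96, 0.86 and 0.89), and Slc9a3 does not (r = 0.11). Of these 3, only Slc26a2 is also highest in the mouse highest for Slc26a3. Slc9a2 is at 101.99 FPKM there, against 102.29 to 128.74 in normal mice.

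BBR in normal mice left 8 of the 9 genes with estimates between −0.18 and 0.33 on the log2 scale and 1, Slc9a3, with a clearly lower one. Slc9a3 was at 84.8, 128 and 37.5 FPKM in normal mice and at 28.5, 20.7 and 22.3 FPKM in BBR-treated normal mice. All 3 treated mice lay below the lowest untreated one, a position shared by 5.46% of all genes, and they were close to each other (23.8 ± 4.12 FPKM against 83.4 ± 45.2, SD, n = 3 each). The log2 fold change was −1.65 (SE 0.42), 0.319 of the normal level, with limma's unadjusted P = 0.00207. The adjusted p was 1, and no gene of the 15315 passed the adjusted limit in this comparison. The unadjusted limit was met by 1.36% of all genes, so 1 call among 9 genes is to be read against that share. The exact permutation p was 0.1, the smallest possible. Slc9a3 met the unadjusted limit with each mouse left out in turn. In the same mice all 8 epithelial markers had lower estimates (−1.05 to −0.09) with none at the unadjusted limit. Among them Cdx2, a transcription factor of intestinal epithelium, was at 15.7 to 35.8 FPKM in normal and 6.97 to 13.2 in BBR-treated normal mice (−1.05, SE 0.51), without overlap. Of the 7 absorptive colonocyte markers, 5 had higher and 2 lower estimates (median 0.08 on the log2 scale). The lowest was Guca2a, with overlap, at 937 to 3284 FPKM in normal and 423 to 1142 in BBR-treated normal mice (−1.45, SE 0.68). The part of such markers in the Slc9a3 value was not tested.

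The other members did not move with Slc9a3. Slc26a3 was at 1324, 956 and 1481 FPKM in BBR-treated normal mice (log2 fold change 0.33, SE 0.61, limma unadjusted P = 0.594), Slc26a2 at 232, 277 and 272 (0.05, SE 0.55) and Slc9a2 at 111, 103 and 116 (−0.05, SE 0.32). Cftr was at 15.97, 25.1 and 12.1 FPKM (−0.14, SE 0.56) and Slc12a2 at 18.1, 26.6 and 24.7 (−0.14, SE 0.45). All of these overlapped the normal mice. Atp1b1 (824, 1015 and 831 FPKM), Slc5a1 (55.9, 64.6 and 69.7) and Slc26a6 (0.44, 0.58 and 0.79) did so too. Relative to its fellow exchanger, Slc9a3 was at 0.192 to 0.257 of the Slc9a2 level in BBR-treated normal mice, below every other mouse, since the ratio was 0.367 to 0.994 in normal mice, 0.328 to 0.739 in colitis mice and 0.492 to 1.11 in BBR-treated colitis mice.

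The estimates of the BBR effect on Slc9a3 were −1.65 in normal mice and 0.49 (SE 0.42) in colitis mice, where the groups overlapped and no rise was shown. The interaction of BBR and colitis, the second minus the first, was 2.14 on the log2 scale (SE 0.59, 95% interval 0.84 to 3.43, limma unadjusted P = 0.00372, adjusted p = 1). It met the unadjusted limit, as did 371 genes (2.42%), with no gene past the adjusted limit. The interaction of the other 8 genes ran from −0.11 for Slc9a2 to 0.88 for Slc26a2, with limma's unadjusted P of 0.275 or more.

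Set against BBR-treated normal mice, BBR-treated colitis mice again had lower Cftr, with log2 fold change −1.53 (SE 0.56, limma unadjusted P = 0.0189, adjusted p = 0.220) and no overlap between the groups. Slc9a2 was lower without overlap (−0.68, SE 0.32, limma unadjusted P = 0.0558, adjusted p = 0.261). Slc9a3 was the opposite case, as all 3 BBR-treated colitis mice were above the BBR-treated normal mice (0.99, SE 0.42, limma unadjusted P = 0.0369, adjusted p = 0.243). In this comparison 0 of the 9 passed the adjusted limit (0.0392% of all genes) and 2 met the unadjusted one (19.7%), with 7 lower estimates (80.1%) and 3 whose groups lay apart (20.2%). Against untreated normal mice, all 9 estimates of BBR-treated colitis mice were lower, as were 81.1% of all genes. Cftr (−1.67, SE 0.56, limma unadjusted P = 0.0118, adjusted p = 0.218) and Slc9a2 (−0.72, SE 0.32, limma unadjusted P = 0.0425, adjusted p = 0.241) met the unadjusted limit, where 20.1% of all genes did so, and they were the 2 members with all treated mice below the normal mice (20.8%). None of the 9 passed the adjusted one (0.0196%). The call of Slc9a2 against untreated normal mice was lost, leaving Cftr alone, after quantile normalization, after median centring, with the compared groups alone, with no trend and after centring on the epithelium markers. With the replicate block Slc9a2 was the 1 member that met the limit in each of these comparisons, where 22.3% and 22.8% of all genes did, and the calls of Cftr and Slc9a3 were lost. Without mouse 2 of BBR-treated colitis mice, 4 members met the unadjusted limit in each of these comparisons (10.7% and 9.82% of all genes), and without mouse 3 the count was 1 against BBR-treated normal mice (9.44%) and 0 against normal mice (9.68%). It was 0 without mouse 3 of BBR-treated normal mice (11.1%) and 1 without their mouse 4 (14.8%), and 1 without mouse 1 (10.6%) or 3 (14.1%) of normal mice. Leaving out the mouse numbered 4 of BBR-treated colitis mice brought Cftr past the adjusted limit in both comparisons (adjusted p = 0.0369 and 0.0278), as did leaving out all mice numbered 4 (0.0403 and 0.0375). In these fits the adjusted calls over all genes went from 6 and 3 to 2255 and 2895 without that mouse, and to 2302 and 2157 without all mice numbered 4. Cftr in that mouse, at 11.99 FPKM, was well above the other 2, and so was its smooth muscle marker sum (3485 FPKM against 499 and 478).

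By group means, Slc26a3 was highest in BBR-treated normal mice (1254 ± 269.8 FPKM, SD, n = 3), nearly level in BBR-treated colitis mice and normal mice, and lowest in colitis mice. The mean of BBR-treated colitis mice rested on values from 225 to 1803 FPKM. Their log2 estimate against normal mice was −0.40, and −1.04 to 0.46 on leaving out each mouse. Slc26a6, Slc9a2, Slc12a2 and Cftr had the same order, normal, normal with BBR, colitis, colitis with BBR. Slc5a1, Slc26a2 and Atp1b1 were lowest in colitis mice, and Slc9a3 in BBR-treated normal mice. The values of neighbours in these orders overlapped, with 3 exceptions: normal and colitis mice for Slc26a3, and BBR-treated normal and colitis mice for Slc9a2 and Cftr.

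Other genes of salt and sugar transport were followed in 7 lists of 88 genes, of which 86 were in the table and 74 were tested. In colitis against normal mice, 20 had higher and 54 lower estimates, 6 and 13 of them at P of at most 0.05, together 25.7% where all genes gave 21.4%. Only Slc5a9 passed the adjusted limit, at 2.62, 1.44 and 1.74 FPKM in normal mice and 27.2, 10.7 and 21.6 FPKM in colitis mice (log2 fold change 3.23, SE 0.49, limma adjusted p = 0.0157). Slc5a9 encodes a sodium-sugar cotransporter related to Slc5a1, which was lower in the same mice. With BBR, Slc5a9 was at 9.24, 28.9 and 7.42 FPKM in colitis mice.

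The channels that serve secretion beside Cftr had the lowest median of the 7 lists, −1.41 against −0.32 for all genes, with 8 of 9 genes lower, as were 73.7% of all genes, and 3 at P of at most 0.05 (21.4% of all genes). These were Kcnk5, a basolateral potassium channel (−1.41, SE 0.44), and the calcium-activated anion channels Best2 (−1.79, SE 0.61) and Ano1 (−1.96, SE 0.71), with limma adjusted p of 0.116 to 0.157. Best2 was at 36.5, 50.2 and 42.2 FPKM in normal mice and at 11.9, 7.20 and 21.1 in colitis mice. Ano1 also marks the pacemaker cells of the muscle layer, and the smooth muscle markers were lower in these mice as well. Their part in the Ano1 value was not tested.

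Among the exchanger partners, Chp2, a cofactor of sodium-hydrogen exchangers, was at 231, 215 and 140 FPKM in normal mice and 122, 84.4 and 62.3 FPKM in colitis mice (−1.15, SE 0.34, limma unadjusted P = 0.00540, adjusted p = 0.105). The scaffold Slc9a3r2 (NHERF2), which anchors Slc9a3, was also lower (−1.54, SE 0.51, limma unadjusted P = 0.0110, adjusted p = 0.133), and the estimate of Slc9a4, at 0.59 FPKM or less in every mouse, was 1.17 higher. The sodium pump list had a median of −0.94, with 3 of 12 genes at P of at most 0.05 (25%, against 21.4% of all genes). These were its regulators Fxyd1 (−1.75, SE 0.43, limma adjusted p = 0.0674), Fxyd2 (−2.42, SE 0.77) and Fxyd6 (−1.19, SE 0.53). Fxyd2 was at 3.04 FPKM or less in normal and colitis mice. The smooth muscle markers were lower in the same colitis mice, and their part in these values was not tested. The anion exchanger Slc4a2 was lower as well (−1.13, SE 0.42, limma unadjusted P = 0.0201, adjusted p = 0.164). Adora2b, a receptor for adenosine that stimulates chloride secretion, had an estimate 1.76 higher but at 0.54 FPKM or less in these mice. P2ry2, a receptor for extracellular nucleotides, was at 8.95, 11.8 and 7.27 FPKM in normal mice and 16.8, 13.7 and 14.1 in colitis mice (0.69, SE 0.27, limma unadjusted P = 0.0251, adjusted p = 0.179). The adenylyl cyclase Adcy6, which makes cyclic AMP, was lower (−1.28, SE 0.55, limma unadjusted P = 0.0396, adjusted p = 0.212). Of the sugar and acid carriers, the glucose transporter Slc2a1 (0.97, SE 0.34) and the lactate transporter Slc16a3 (1.43, SE 0.57) were higher at the unadjusted limit, with adjusted p of 0.145 and 0.187 by limma. The potassium-chloride cotransporter Slc12a7 was lower by estimate (−0.87, SE 0.35).

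BBR in colitis mice left the lists near the background, with 3 of the 74 genes at P of at most 0.05 (4.05%, against 6.39% of all genes). Fxyd5 was lower (−1.17, SE 0.38, limma unadjusted P = 0.0102, adjusted p = 0.568), at 17.4, 49.1 and 17.1 FPKM in colitis mice and 10.4, 15.2 and 7.96 with BBR. Atp12a, the colonic proton-potassium pump, was higher (1.25, SE 0.49, limma unadjusted P = 0.0256, adjusted p = 0.674), with 1530 FPKM in the same mouse 2 that was highest for Slc26a3. Slc9a4 had an estimate of −1.15 (SE 0.48) at these low levels. In BBR-treated normal mice none of the 74 genes met the unadjusted limit. Groups without overlap were found for 5 of the 74, against 9.62% of all genes. These were Kcnk5 (−0.53, SE 0.44), Slc4a2 (−0.46, SE 0.42), Slc9a9 (−0.31, SE 0.30) and Clcn2 (−0.23, SE 0.27), which were lower with BBR, and Slc4a4 (0.84, SE 0.80), which was higher. They are named for their position after the values were seen.

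**Figure D4:**
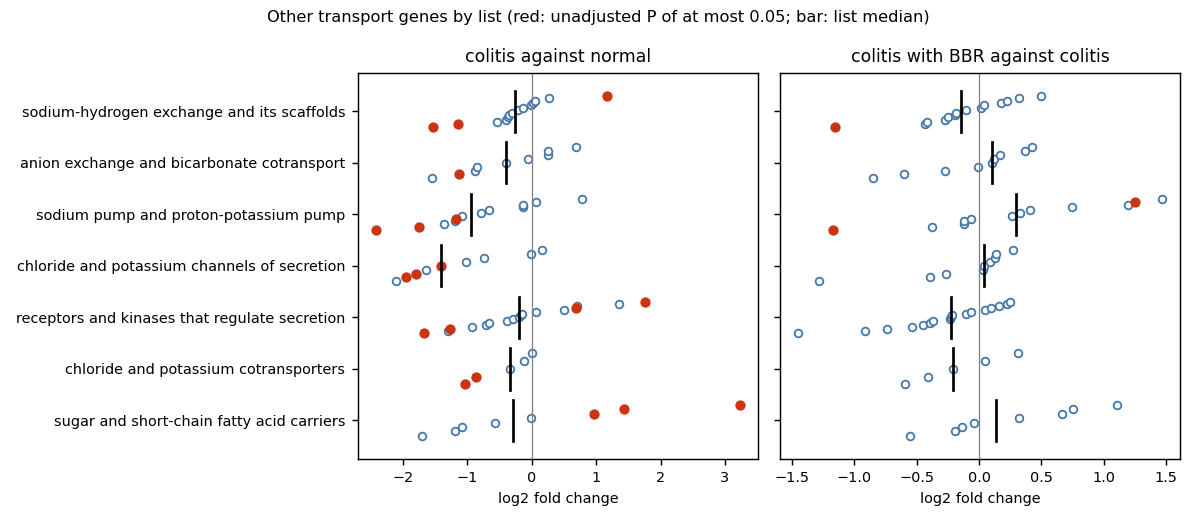
log2 fold changes (horizontal axes) of the 74 tested genes in 7 lists (rows) for colitis against normal and for BBR in colitis, 1 point per gene, red where the unadjusted P is at most 0.05, with a bar at the list median. The channels of secretion have the lowest median in colitis (−1.41), and Slc5a9 is the point at 3.23.

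Among the genes outside the 9 whose log2 levels were most like those of Slc26a3 over the 12 mice, of 11943 with a mean of at least 1 FPKM, were Cyp27a1 (r = 0.95, rho = 0.94), Otub1 (0.93, 0.93), Slc20a1 (0.92, 0.73) and Akap9 (0.92, 0.88). Those most like Slc12a2 were Terf2 (r = 0.94, rho = 0.97), Bcas2 (0.94, 0.97), Atf1 (0.92, 0.90), Unk (0.92, 0.91) and Eid2b (0.91, 0.77). By rank correlation Slc20a1 was in place 161 for likeness to Slc26a3, and Eid2b in place 1090 for likeness to Slc12a2.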

How the data were processed

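Rectal RNA of 12 mice was depleted of ribosomal RNA and sequenced in single-end reads of 50 bases, according to the methods, while the labels name colorectum and another kit. Reads were cleaned by the authors in SOAPnuke, and per the submitters' processing notes Bowtie2 (2.2.5), RSEM (1.2.12) and the mm9 build were used. The values the authors deposited were taken as FPKM from their size, and they could be TPM instead. No counts were used, so depth is known only roughly, and the reads stated cover counting error only.

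Of the 17734 genes, the 15315 whose mean reached 0.1 FPKM were tested on log2(FPKM + 0.1) by limma (3.58.1, R 4.3.3), fitting each group's mean with a trended empirical Bayes spread shared by all mice. Benjamini-Hochberg adjustment ran over all of them (limit 0.05), and the study's unadjusted limit of 0.05 is given beside them. This log scale understates the change of low genes. Single genes had an exact two-sided permutation test. Samples with different numbers were read as separate mice, so P-values measure the spread between these mice.

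The members, lists and tests were chosen with earlier results of these data known. The rule for named genes took all 9 members, at most 3 genes per list and comparison with the smallest P at the unadjusted limit, and the 5 genes most like Slc26a3 and Slc12a2. Alternatives were pseudocounts of 1 and 0.01, a filter at 1 or none, quantile normalization, median centring, the compared groups alone, no trend, a replicate block, a block for or removal of the mice numbered 4, and leaving out each mouse. Centring on the epithelium markers was added after seeing the data. Promoters came from RefSeq (GRCm38.p6), and positions were not converted between builds. Some genes that this rule takes are not reported here.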

Additional observations from a re-analysis of the deposited data

Results flagged for a closer look

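The effect of BBR on Slc9a3 differed between colitis and normal mice by 2.14 on the log2 scale, the BBR effect in colitis minus that in normal mice, by limma's test of the interaction (unadjusted P = 0.00372, adjusted p = 1). Slc9a3 was lower in 3 of 3 BBR-treated normal mice than in any normal mouse, while colitis mice with and without BBR overlapped. The size ran from 1.74 to 2.63 when each mouse was left out in turn, with unadjusted P of at most 0.0105, and from 1.99 to 2.26 under the other settings. It is 1 of 371 genes at that limit among 15315 tested. It was smallest without normal mouse 3, the highest at 128 FPKM, and largest without normal mouse 4. No other member met the limit for this difference over the 12 mice, and Slc26a2 (1.65, limma unadjusted P = 0.00694) and Slc26a3 (1.35, limma unadjusted P = 0.0330) met it once mouse 3 of BBR-treated colitis mice was left out, where 3 of 9 members and 5.80% of all genes did, against 1 and 2.42% with it.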

How the results depend on the processing

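No member passed the adjusted limit in any comparison with the values as deposited, and 108 of 113 counts under other settings were 0 as well. The other 5 went from 0 to 1, in fits where the adjusted calls over all 15315 genes rose as well. These were Slc26a2 for colitis against normal with the compared groups alone (count 1, limma adjusted p = 0.0337, 488 genes against 165), and Cftr against both normal groups without the mice numbered 4 (count 1 each) or without mouse 4 of BBR-treated colitis mice (counts of 0 to 1 on leaving out each mouse), with 2157 to 2895 genes against 6 and 3. The cause was not tested. Of 1011 values of single members, 916 kept direction and side of the limit, 5 passed the limit and 90 turned sign, none of these past the limit.

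After quantile normalization, log2 values turned for colitis against normal Slc26a6 0.00557, for BBR in colitis Slc26a6 0.0814, Slc12a2 0.0239 and Cftr 0.12, for colitis with BBR against normal with BBR Slc26a6 0.19, for colitis with BBR against normal Slc26a6 0.0870 and Atp1b1 0.0506. After median centring, log2 values turned for BBR in colitis Slc26a6 0.0434, Slc12a2 0.103 and Cftr 0.0828, for colitis with BBR against normal with BBR Slc26a6 0.12, for colitis with BBR against normal Slc26a3 0.0909, Slc26a2 0.0376 and Atp1b1 0.38, for the interaction Slc9a2 0.00799. With the replicate block, log2 values turned for BBR in colitis Cftr 0.0534, for colitis with BBR against normal with BBR Atp1b1 −0.0107, for the interaction Slc26a6 −0.0223 and Slc9a2 0.0220. Without the mice numbered 4, log2 values turned for BBR in colitis Slc26a6 0.0305 and Slc12a2 0.28, for BBR in normal mice Slc26a2 −0.13, for colitis with BBR against normal with BBR Atp1b1 −0.197, for the interaction Cftr −0.0433. Centred on the epithelium markers, log2 values turned for BBR in colitis Slc26a6 0.0708, Slc9a2 0.0221, Slc12a2 0.13 and Cftr 0.11, for BBR in normal mice Slc26a6 0.14, Slc9a2 0.28, Slc12a2 0.18, Cftr 0.18, Atp1b1 0.201 and Slc5a1 0.27, for colitis with BBR against normal Slc26a3 0.0108 and Atp1b1 0.304, for the interaction Slc26a6 −0.0724, Slc12a2 −0.0544, Cftr −0.0702 and Slc5a1 −0.0256.

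Leaving out each mouse in turn, the values that turned sign ran as follows. BBR in normal mice gave Slc26a2 −0.0959 to 0.26, Cftr −0.43 to 0.103, Slc9a2 −0.13 to 0.0392, Slc5a1 −0.15 to 0.15 and Slc12a2 −0.25 to 0.0280. The interaction gave Cftr −0.55 to 0.48, Slc5a1 −0.25 to 0.67, Slc26a6 −0.21 to 0.41, Slc12a2 −0.35 to 0.66, Slc9a2 −0.39 to 0.34 and Slc26a3 −0.15 to 1.35. Colitis with BBR against normal with BBR gave Atp1b1 −0.25 to 0.46, Slc26a3 −1.37 to 0.13 and Slc26a2 −1.21 to 0.27. BBR in colitis gave Cftr −0.698 to 0.33, Slc5a1 −0.296 to 0.62, Slc26a6 −0.39 to 0.23, Slc12a2 −0.49 to 0.53 and Slc9a2 −0.44 to 0.29. Colitis with BBR against normal gave Slc26a3 −1.04 to 0.46, Slc26a2 −1.17 to 0.31 and Atp1b1 −0.38 to 0.34.

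Mice of the same number are not paired in the labels, and the lowest correlation of deviations from group means among same-numbered pairs was 0.0777. The mean was 0.340 for same-numbered pairs (0.497, and at least 0.357, among the mice numbered 4, and 0.205 among the others) and −0.103 for different numbers. A block for the mice numbered 4 took the adjusted calls over all genes from 165 to 1412 for colitis against normal and from 6 to 268 for colitis with BBR against normal with BBR, with 0 members among them. Of the 12 mice, 5 correlated best with a mouse of their own number. With the replicate block 0 members passed the adjusted limit in each comparison, while 6 of 9 met the unadjusted one for colitis against normal, against 3 without it (26.2% and 21.4% of all genes), and 1 in place of 2 for colitis with BBR against normal with BBR (22.3% and 19.7%) and against normal (22.8% and 20.1%). The latter count was also 1 after quantile normalization, median centring or centring on the epithelium markers, with the compared groups alone and with no trend. Over all genes that block gave 734 against 165 adjusted calls for colitis against normal. After quantile normalization the share of calls at the unadjusted limit that were higher went from 18.6% to 43.5% for BBR in colitis, from 12.1% to 52.5% for colitis with BBR against normal with BBR, from 9.16% to 51.5% for colitis with BBR against normal, and from 28.8% to 54.9% for the interaction. Slc26a6 stood on few reads, and how far this limited what could be detected for it was not tested.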
